A study of Mus musculus with 9 samples.

Results

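The respiratory chain genes of mouse basophils grown from bone marrow were described here, those of the mitochondrial genome beside those of the nuclear genome. They were chosen by symbol alone: the mitochondrially encoded subunits of complexes I, III, IV and V, the nuclear families Nduf, Sdh, Uqcr, Cox4 to Cox7 and Atp5, with at least 10 counts in 3 or more of the 9 libraries. Among 35673 gene symbols, 120 carried such a name, and 113 of them met the count minimum. These were 13 mitochondrially encoded genes (7 of complex I, 1 of complex III, 3 of complex IV and 2 of complex V), 80 nuclear genes for subunits (38 of complex I, 4 of complex II, 8 of complex III, 13 of complex IV and 17 of complex V), 8 nuclear genes for complex I assembly factors and 12 genes with pseudogene symbols. Of the 80, 77 are annotated as protein coding and 3, Cox6c2, Ndufb4c and Ndufs6b, as processed pseudogenes. Of the 12 with pseudogene symbols, Cox5b-ps is annotated as protein coding and Ndufb1-ps as a noncoding RNA from a bidirectional promoter. The 7 genes under the minimum were Cox4i2, Cox6a2, Cox7a1, Cox7b2, Ndufa4l2, Ndufa11b and Atp5k-ps2. Just outside the minimum lay Ndufa11b, Ndufa4l2 and Cox4i2, with third-highest counts of 8, 7 and 5. Just inside it lay Atp5l-ps2, Atp5c1-ps and Ndufs6b, with 10, 12 and 14. All 113 members were tested.

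The cells were basophils from C57BL/6J wild-type mice, obtained by 7 days of bone marrow culture in 0.3 ng/mL IL-3 and magnetic selection of CD49b-positive cells, and 10000 cells went into each incubation. In the difamilast group, cells received 10 ng/mL IL-3 and 10 ng/mL IL-33 together with 3 µM difamilast, an inhibitor of phosphodiesterase 4. Stimulated cells received the same cytokines with the solvent DMSO, and resting cells received PBS with DMSO. Each condition lasted 4 h and has 3 libraries. The labels do not say whether the libraries of a group came from separate cultures, so p-values measure the spread between these libraries. Because these are bulk samples, fewer cells of a type and less RNA per cell cannot be told apart.

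The respiratory chain passes electrons from NADH (complex I) and succinate (complex II) through coenzyme Q, complex III and cytochrome c to oxygen at complex IV, and ATP synthase (complex V) uses the proton gradient that results. The mitochondrial genome encodes core membrane subunits of complexes I, III, IV and V and none of complex II, so that 4 of the complexes need messages from both genomes. Mitochondrial messages are cut out of long transcripts of a circular genome by mitochondrial enzymes, while the nuclear genes are transcribed one by one, and their proteins are imported. Many nuclear subunits are small proteins with short messages, a point that matters for libraries made from amplified cDNA.

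Library totals ran from 6261446 to 38098584 counts. The 10 basophil markers, among them the protease genes Mcpt8 and Prss34 and the IgE receptor gene Fcer1a, were all at 1 CPM or more (counts scaled to a common library total, abbreviated CPM). Their summed level was 13263 to 13609 CPM in difamilast libraries, 11534 to 12327 CPM in stimulated libraries and 6713 to 7715 CPM in resting libraries. Not every marker followed the sum. Itga2 was highest at rest, with 12.2 to 13.5, 11.7 to 13.85 and 19.6 to 23.5 CPM in the same order of groups. Cd200r3 overlapped between the groups, with 539 to 655, 630 to 647 and 533 to 667 CPM. Hdc had 4082 to 4902, 2218 to 2355 and 1657 to 2350 CPM, so its stimulated and resting libraries overlapped. Il3ra was also highest with difamilast. Ms4a2 had 95.8 to 108, 177 to 186 and 99.9 to 108 CPM. Fcer1a and Gata2 were also lower with difamilast than with stimulation, and Mcpt8, Prss34 and Il1rl1 overlapped between these groups. All 9 monocyte and macrophage markers were also at 1 CPM or more, with sums of 4247 to 4568, 4383 to 4633 and 5707 to 7043 CPM in the same order of groups. Sums of the other lists were 1654 to 1992, 1737 to 1873 and 944 to 1334 CPM for mast cell markers (Mrgprb2 under 0.1 CPM), 1847 to 1968, 1670.2 to 1778 and 1483 to 1896 CPM for dendritic markers, and 289 to 334, 231 to 284 and 375 to 588 CPM for megakaryocyte markers. Neutrophil sums lay between 95.1 and 176 CPM and NK and T cell sums between 12.5 and 30.1 CPM over the 9 libraries. The part of these other cells in the results below was not tested. Within groups, 2 libraries stood apart: the count differences of difamilast replicate 3 from its partners had a chi-square of 48.7 and 33.3 per degree of freedom, against 7.33 between those partners, and resting replicate 1 had 38.5 and 22.1, against 5.51.

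A first question was which reads the mitochondrial values hold. GENCODE vM21 (GRCm38) places mt-Atp8 at chrM:7766-7969 and mt-Atp6 at chrM:7927-8607, both on the plus strand, and the genes share 43 bases. They are shown because a read inside the bases in capitals belongs to both genes, and the counting rule for such reads is not given in the sources used here. 
mt-Atp8, last 60 bases: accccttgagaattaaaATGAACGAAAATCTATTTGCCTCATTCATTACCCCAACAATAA
mt-Atp6, first 60 bases: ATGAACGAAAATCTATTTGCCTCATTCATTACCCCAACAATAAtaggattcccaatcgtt

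On chromosome 1 the annotation also holds a block of unprocessed pseudogenes on the minus strand that repeats part of the mitochondrial genome, from Gm28439 (from base 24611535) to Gm29216 (to base 24616197). Its Gm28438, at chr1:24612775-24613119, differs from mt-Nd3 (chrM:9459-9806, plus strand) at 1 of 345 bases, and the first 80 bases of both are printed to show how little separates a gene from its nuclear copy; the capital letter marks the difference.
mt-Nd3: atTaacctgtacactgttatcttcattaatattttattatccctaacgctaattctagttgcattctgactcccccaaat
Gm28438: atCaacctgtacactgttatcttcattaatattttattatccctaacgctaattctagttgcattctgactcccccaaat

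For several copies the count was near that of the mitochondrial gene in all 9 libraries. Gm28661 had 0.962 to 1.04 counts per count of mt-Co2, Gm28437 had 0.987 to 1.01 per count of mt-Co3 and Gm10925 had 0.978 to 1.00 per count of mt-Atp6, and all 3 aligned at 100% identity. Gm28438 had 0.880 to 1.03 counts per count of mt-Nd3. The ratio was lower for the other copies: 0.704 to 0.792 for Gm10222 (mt-Nd4l, 100% identity over 294 of 297 bases), 0.558 to 0.644 for Gm28439 (876 bases of mt-Nd4), 0.301 to 0.348 for Gm13341 (mt-Co2, 95.9% identity) and 0.141 to 0.155 for Gm13340 (mt-Co1, 97.6% identity), the last 2 on chromosome 2. It was lowest for Gm29216 (0.0649 to 0.0986, mt-Co1), Gm13339 (0.0057 to 0.0142, mt-Nd2) and Gm4076 (0.0036 to 0.0073, mt-Nd5), where it varied most between libraries. No annotated copy was found for mt-Atp8, mt-Cytb, mt-Nd1 and mt-Nd6. The search covered annotated transcripts only. In the chromosome 1 block, Gm10925 (to base 24614651) and Gm28661 (from base 24614885), copies of mt-Atp6 and mt-Co2, leave a stretch between them. On chrM, mt-Atp8 lies between mt-Co2 and mt-Atp6, so an unannotated copy of it there is possible and was not tested. Reads from identical stretches cannot be assigned to one genome, so the levels of mt-Co2, mt-Co3, mt-Atp6, mt-Nd3, mt-Nd4 and mt-Nd4l are given below both alone and with the copies added.

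**Figure D1:**
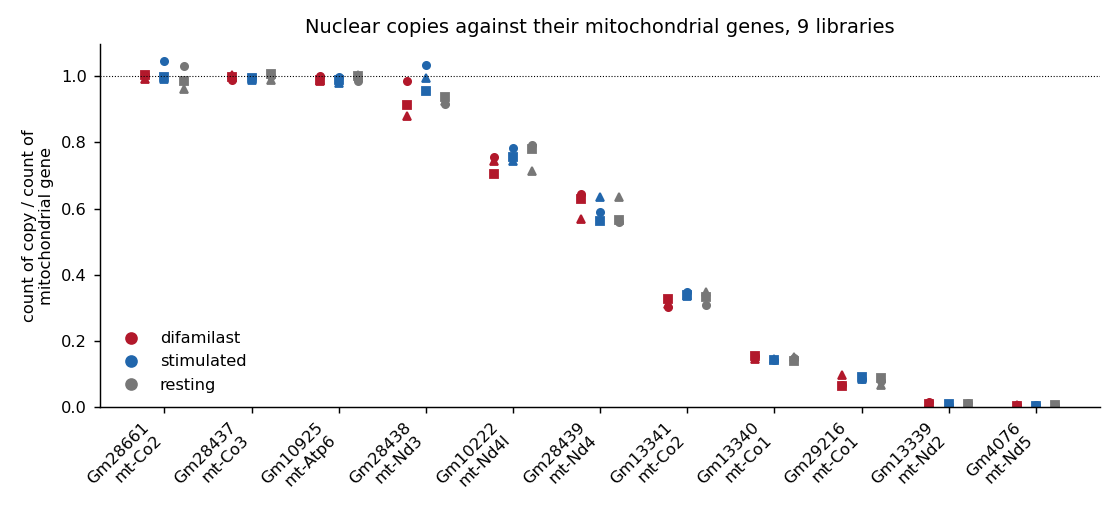
Count of each nuclear copy divided by the count of its mitochondrial gene (vertical axis, no unit), for 11 copies named under the axis with their gene. Each point is a library, coloured by group, with replicates 1, 2 and 3 as circle, square and triangle; Gm28661, Gm28437 and Gm10925 sit near the dotted line of 1 in every group.

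Mitochondrial messages were far more abundant than nuclear ones. Per kilobase of transcript, the 13 mitochondrial genes had a median level of 736 CPM per kb (81.3 to 3127), and the 80 nuclear subunit genes had a median of 45.7 CPM per kb (1.55 to 348). With copies added the mitochondrial median was 959.6 CPM per kb. The highest levels were those of mt-Atp8 (3127 CPM per kb), mt-Co1 (3050 with copies, 2483 alone), mt-Atp6 (2819 and 1415), mt-Co3 (2792 and 1399) and mt-Co2 (2491 and 1069.7), which encode subunits of ATP synthase and the catalytic core of cytochrome c oxidase. The order within these 5 genes depends on the copies and on the shared 43 bases, and for mt-Atp8 there was no annotated copy to add. It also depends on the lengths used, which are those of the annotated genes: 204 bases for mt-Atp8 and 681 for mt-Atp6. Likewise mt-Nd4l (297 bases) and mt-Nd4 (1378) share 7 bases on the same strand. The values of such a pair need not stand for separate messages. Next came mt-Nd4l (1290.1 with copies, 736 alone), mt-Cytb (959.6), which encodes the cytochrome b of complex III, and mt-Nd1 (590.0). Complex I genes other than mt-Nd4l and mt-Nd1 were at the low end. Among them mt-Nd4 was at 415 CPM per kb with copies (259.7 alone), mt-Nd2 at 282, mt-Nd5 at 271 and mt-Nd3 at 244 (125 alone). The lowest was mt-Nd6 at 81.3 CPM per kb, the only one of the 13 on the light strand. In human cells its message is known to lack a long poly(A) tail, which an oligo-dT capture needs. Any part of this in its level here was not tested. Among nuclear subunits the highest per kilobase were Atp5g3 (348), a gene for the c subunit of ATP synthase, Cox4i1 (323), the common isoform of complex IV subunit 4, and Atp5b (245), the catalytic beta subunit of ATP synthase.

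The summed level of the 13 mitochondrial genes was 8850.3, 8992 and 10836 CPM in difamilast libraries, 10899.7, 11608 and 11087 CPM in stimulated libraries and 7587, 12163 and 11345 CPM in resting libraries. The 80 nuclear subunit genes summed to 3942, 4079.7 and 4833 CPM in difamilast libraries, 4798, 5168 and 4757 CPM in stimulated libraries and 4041, 5054 and 4462 CPM in resting libraries. Both sums were high in difamilast replicate 3 and low in resting replicate 1, so that the difamilast group overlapped the resting group for both sums and the stimulated group for the nuclear sum. Within its group, difamilast replicate 3 was highest for 13 of 13 mitochondrial and 62 of 80 nuclear subunit genes. Resting replicate 1 was lowest for 12 of 13 mitochondrial genes. Of the 80 nuclear ones it was lowest for 38 and highest for 18, and resting replicate 3 was lowest for 34. The mitochondrial to nuclear ratio was 2.25, 2.20 and 2.24 with difamilast (mean 2.23 ± 0.0229, SD, n = 3), 2.27, 2.25 and 2.33 with stimulation (2.28 ± 0.0434) and 1.88, 2.41 and 2.54 at rest (2.28 ± 0.351). The means of the 3 groups thus lay within the spread of the resting libraries. With 3 libraries against 3 the smallest two-sided exact permutation p is 0.1, and no p is given for a sum over members.

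**Figure D2:**
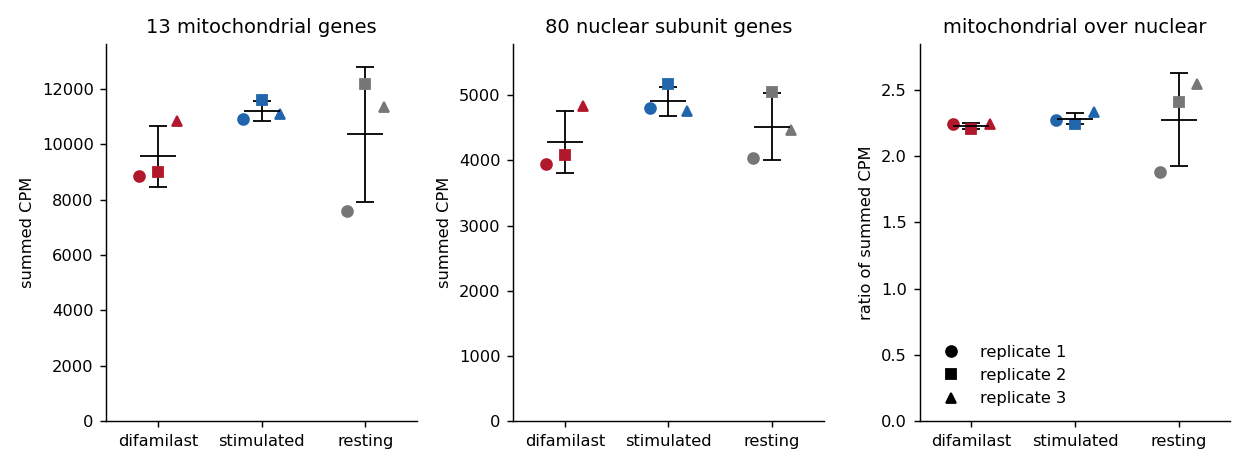
Summed level (CPM) of the 13 mitochondrial genes and of the 80 nuclear subunit genes, and their ratio, for the 9 libraries. Points are libraries, horizontal lines are group means and bars are 1 SD; resting replicate 1 has the lowest mitochondrial sum (7587 CPM) and the lowest ratio (1.88).

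Shares of the unscaled counts gave another picture of the same libraries. The 13 mitochondrial genes took 0.850% ± 0.0620 of all counts with difamilast, 0.987% ± 0.0342 with stimulation and 1.31% ± 0.268 at rest (SD, n = 3 each), and the nuclear subunit genes took 0.381% ± 0.0265, 0.433% ± 0.0221 and 0.572% ± 0.0444. The TMM scaling factors were 0.851 to 0.916 in difamilast libraries, 0.871 to 0.892 in stimulated libraries and 1.23 to 1.32 in resting libraries. With library totals alone, the median log2 fold change of all tested genes in stimulated against resting cells was -0.47, that of the mitochondrial genes -0.34 and that of the nuclear subunits -0.38, which put both classes 0.13 and 0.08 above the median gene. All fold changes below are on the TMM scale, on which the median of all tested genes was 0.06 for that comparison.

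In stimulated against resting cells, no mitochondrial gene passed the test. The most abundant, mt-Co1, had 3881, 3980.4 and 3803 CPM in stimulated libraries and 3168, 4388 and 4201 CPM in resting libraries, with a log2 fold change of -0.01 ± 0.12 (edgeR quasi-likelihood fit, SE). The stimulated values lay between the resting ones. For mt-Cytb the stimulated libraries had 1148, 1212 and 1217 CPM and the resting libraries 753, 1188 and 1195 CPM, so that resting replicate 1 stood apart from the rest. The exception to that library's low values was mt-Nd3, at 51.1 CPM in resting replicate 1 against 37.4 and 35.7 CPM in its partners. Over the 13 genes the log2 fold change ran from -0.01 to 0.26 with a median of 0.18, and the 95% interval of every one lay within 2-fold. None reached an unadjusted p under 0.05 with edgeR, DESeq2 or limma-voom, where 41.4%, 40.7% and 41.0% of all 21341 tested genes did. After adjustment edgeR called 31.7% of all tested genes (adjusted p under 0.05), 15.3% higher and 16.4% lower. Without resting replicate 1 the mitochondrial median was -0.03 and 9 of the 13 values changed sign, still with 0 calls. Adding the nuclear copies gave a median of 0.19 and 0 calls.

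Few nuclear subunit genes passed the test. Of 80 genes, 2 were called higher, 1 was called lower and 77 did not pass, with a median log2 fold change of 0.15 and 75 of 80 intervals within 2-fold. By complex the medians were 0.09 for complex I, 0.10 for complex II, 0.18 for complex III, 0.34 for complex IV and 0.23 for complex V. The genes called higher were Cox6c, for a subunit of cytochrome c oxidase, and its near-copy Cox6c2, an annotated processed pseudogene. Cox6c had 91.4, 106 and 83.4 CPM in stimulated libraries and 55.7, 60.4 and 41.7 CPM in resting libraries, a log2 fold change of 0.83 ± 0.17 (edgeR adjusted p = 0.00183). The groups did not overlap. They were separate in 12 nuclear subunit genes that were higher and 6 that were lower, where the background was 23.2% and 20.6% of all tested genes. No mitochondrial gene had such groups. Cox6c2 had 11.3, 11.0 and 8.69 CPM in stimulated libraries and 6.15, 6.50 and 4.81 CPM in resting libraries (log2 fold change 0.80 ± 0.26, edgeR adjusted p = 0.0274). This call was lost without any one of the 3 resting libraries or of stimulated replicates 1 and 2 (adjusted p 0.0525 to 0.102) and after removal of the length trend (0.0644).

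The 2 genes are not independent observations. Cox6c lies at chr15:35925886-35938246 and Cox6c2 at chr12:56373593-56373823, both on the minus strand of GRCm38, and 231 bases from start to stop codon align with 7 differences (96.97% identity), in capitals here to show what a read must cover to tell them apart.
Cox6c: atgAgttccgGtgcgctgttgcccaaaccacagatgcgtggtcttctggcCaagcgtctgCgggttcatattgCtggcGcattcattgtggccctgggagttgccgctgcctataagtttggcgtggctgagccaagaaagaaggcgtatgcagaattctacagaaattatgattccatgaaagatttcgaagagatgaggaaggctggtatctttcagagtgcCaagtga
Cox6c2: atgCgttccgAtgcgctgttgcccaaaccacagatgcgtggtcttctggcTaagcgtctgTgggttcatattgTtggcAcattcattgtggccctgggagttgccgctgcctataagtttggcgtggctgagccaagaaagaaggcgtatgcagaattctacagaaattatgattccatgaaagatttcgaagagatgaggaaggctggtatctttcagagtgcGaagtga

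Complex II, which has no mitochondrially encoded subunit, contained the gene called lower. Sdha, the flavoprotein that oxidises succinate, had 79.2, 77.9 and 78.7 CPM in stimulated libraries and 137, 89.6 and 105 CPM in resting libraries, a log2 fold change of -0.49 ± 0.13 (edgeR adjusted p = 0.0112). Every stimulated library was below every resting one, and the call held without each library in turn (log2 fold change -0.34 to -0.67). Its partner Sdhb, the iron-sulphur subunit, had 93.3, 99.4 and 103 CPM in stimulated libraries and 64.1, 101 and 99.8 CPM in resting libraries (log2 fold change 0.17 ± 0.15, not called). The membrane anchors Sdhc and Sdhd had log2 fold changes of 0.33 ± 0.15 and 0.03 ± 0.14 and were not called. The 4 subunits of this complex thus gave values on both sides of 0.

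Among the other nuclear subunits named by rule, the abundant complex I gene Ndufb9 had a log2 fold change of 0.41 ± 0.28, and the complex III genes Uqcrc1 and Uqcrfs1 (the Rieske protein) had 0.19 ± 0.11 and 0.29 ± 0.13. The ATP synthase genes Atp5a1 and Atp5b had -0.18 ± 0.14 and 0.10 ± 0.12. None of these was called by edgeR with all libraries. Of the isoform genes of complex IV, Cox4i1 had 0.25 ± 0.24, Cox6a1 0.46 ± 0.20 and Cox7a2 0.42 ± 0.17, also without a call. Cox6a1 was called without resting replicate 2 or difamilast replicate 3 (edgeR adjusted p = 0.0290 and 0.0306) and Cox7a2 without difamilast replicate 3 (0.0200). The alternative isoforms Cox4i2, Cox6a2 and Cox7a1, known from lung and striated muscle, were under the count minimum in these cells. Cox7a2l, classed here with complex IV, had -0.31 ± 0.13 and was not called, but was called without resting replicate 1 (-0.51, edgeR adjusted p = 9.52e-05). Of the 8 complex I assembly factors none was called (median 0.05); the most abundant, Ndufaf7, had 14.7, 12 and 13.8 CPM in stimulated libraries and 18.1, 15.8 and 16.8 CPM in resting libraries. One of the 12 pseudogene symbols was called higher: Ndufb1-ps, with 30.2, 32.0 and 26.0 CPM in stimulated libraries and 20.9, 16.8 and 12.9 CPM in resting libraries (log2 fold change 0.79 ± 0.19, edgeR adjusted p = 0.00450), named after its values were seen. Despite its symbol, Ndufb1-ps is not annotated as a pseudogene. It shares 147 exonic bases with Cpsf2, and Cox6c shares 250 with Vps13b, both on the opposite strand, so reads in them can belong to either gene of the pair.

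In difamilast against stimulated cells nearly all members had fold changes under 0, and almost none passed the test. All 13 mitochondrial genes and 73 of 80 nuclear subunit genes had a log2 fold change under 0, with medians of -0.25 and -0.29, against -0.003 over all tested genes. None of the 13 and none of the 80 was called, where the background was 3.44% (2.21% higher and 1.24% lower). At an unadjusted p under 0.05, edgeR had 2 of 13 mitochondrial (15.4%) and 21 of 80 nuclear subunit genes (26.2%), all lower. Of all 21341 tested genes it had 1697 lower and 1435 higher (14.7% in both directions). DESeq2 had 3 and 21, all lower, beside 1568 lower and 1523 higher of all tested genes. With limma-voom 4 and 30 were lower, beside 2094 lower and 1631 higher of all tested genes. After adjustment each tool had 0 calls in these 2 classes. The 95% intervals lay within 2-fold for 13 of 13 mitochondrial and 72 of 80 nuclear genes.

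The mitochondrial gene with the smallest p was mt-Atp8, which had 455, 489 and 609 CPM in difamilast libraries and 714, 794 and 766 CPM in stimulated libraries (log2 fold change -0.55 ± 0.18, edgeR adjusted p = 0.142). It was called without resting replicate 1 (edgeR adjusted p = 0.00116), with the 2 groups alone (0.00243), with no filter on low counts (0.000623) and with the replicate number as a block (0.0465). The groups did not overlap, nor did those of mt-Co3, mt-Cytb and mt-Nd1, which makes 4 of 13 with difamilast lower and 0 higher, beside 8 and 0 of 80 nuclear subunit genes, where the background was 12.6% lower and 12.2% higher. For mt-Co3 the difamilast libraries had 747, 841 and 1154 CPM and the stimulated libraries 1238, 1381 and 1163 CPM (-0.46 ± 0.22, not called). mt-Co1 differed little, with 3642, 3594 and 3874 CPM in difamilast libraries and 3881, 3980.4 and 3803 CPM in stimulated libraries (-0.07 ± 0.12). The remaining members ranged from -0.47 ± 0.22 for mt-Co2 to -0.02 ± 0.17 for mt-Nd6. In difamilast replicate 3 all 13 genes were higher than in its partners, and mt-Co2, at 514, 524 and 823 CPM in difamilast libraries and 828, 952 and 793 CPM in stimulated libraries, reached the stimulated range there.

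By complex, the nuclear medians were -0.37 for complex I, -0.13 for complex II, -0.12 for complex III, -0.38 for complex IV and -0.26 for complex V. Cox5a, a matrix-side subunit of complex IV, had 83.3, 100.2 and 151 CPM in difamilast libraries and 162, 171 and 136 CPM in stimulated libraries (log2 fold change -0.49 ± 0.21, not called). Cox4i1 had 149.9, 188 and 299 CPM in difamilast libraries and 269.6, 309.6 and 252 CPM in stimulated libraries (-0.38 ± 0.24, not called). For both genes difamilast replicate 3 lay within the stimulated range and its 2 partners lay below it. In Sdhb all 3 libraries were lower, with 77.7, 67.4 and 74.8 CPM in difamilast libraries and 93.3, 99.4 and 103 CPM in stimulated libraries (-0.43 ± 0.15, edgeR adjusted p = 0.154). It was called without resting replicate 1 (edgeR adjusted p = 0.00209) and with the 2 groups alone (0.00448). The longer, abundant ATP synthase genes lay on the other side of 0: Atp5b had 551, 533 and 426 CPM in difamilast libraries and 465, 447 and 496 CPM in stimulated libraries (0.10 ± 0.12), and Atp5a1 had 0.17 ± 0.14, neither of them called. Without difamilast replicate 3 the nuclear median was -0.51, and 17 of 80 nuclear genes were called lower and 0 higher, where 2.74% of all genes tested in that fit were lower and 2.47% higher; the mitochondrial median was -0.37, with 0 calls.

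**Figure D3:**
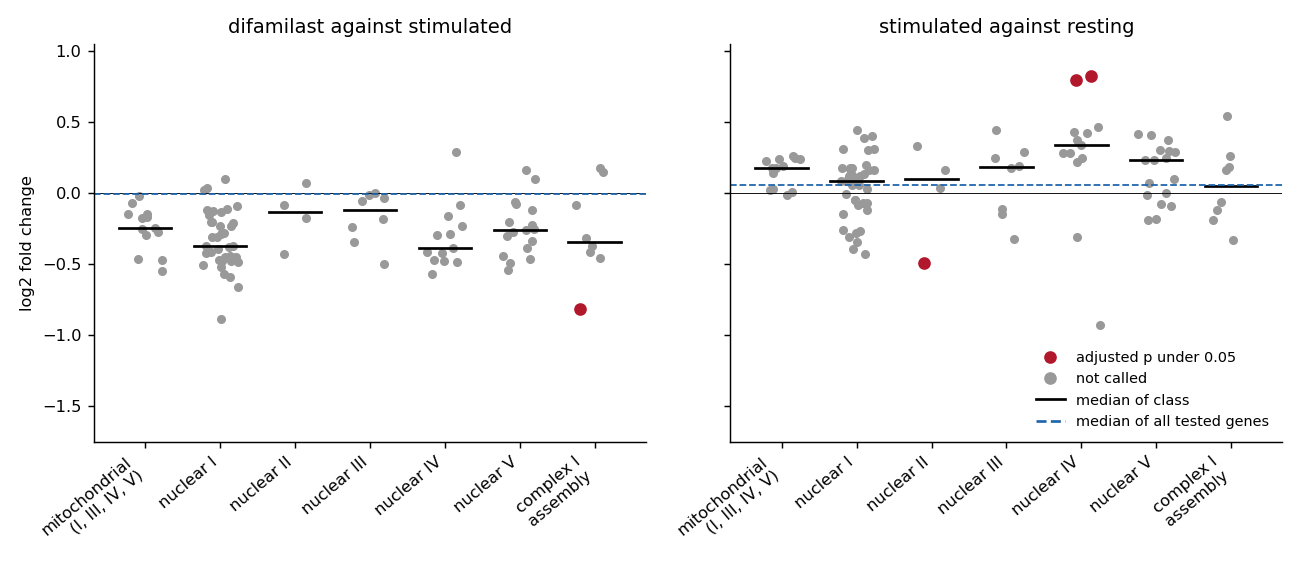
Log2 fold change (vertical axis) of the 13 mitochondrial genes, of the nuclear subunit genes by complex and of the complex I assembly factors, for difamilast against stimulated cells and stimulated against resting cells. Each point is a gene, red where called; black lines are class medians and the dashed line is the median of all tested genes, which in the first panel lies at -0.003, above the median of every class.

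One assembly factor was called. Ndufaf4, needed for an early step of complex I assembly, had 4.04, 3.69 and 4.46 CPM in difamilast libraries, 6.95, 7.78 and 6.65 CPM in stimulated libraries and 4.13, 7.27 and 6.46 CPM in resting libraries. Its log2 fold change in difamilast against stimulated cells was -0.82 ± 0.21 (edgeR adjusted p = 0.0461), with no overlap between the groups. The call was lost without any one of resting replicate 3, the 3 stimulated libraries and difamilast replicates 1 and 2 (adjusted p 0.0527 to 0.234), and the 8 assembly factors had a median of -0.34. In difamilast against resting cells it had -0.55 ± 0.22 and was not called by edgeR, but was called by DESeq2 (-0.58, adjusted p = 0.0410) and by edgeR without resting replicate 1 (-0.80, adjusted p = 0.00495).

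Transcript length moved with these values. Among all genes at a mean of 10 CPM or more, the median log2 fold change in difamilast against stimulated cells was -0.28 for 255 genes under 500 bases, -0.36 for 323 genes of 500 to 750 bases, -0.34 for 444 genes of 750 to 1000 bases, -0.06 for 1866 genes of 1000 to 2000 bases, and 0.02 and 0.04 for longer ones. Nuclear subunit genes in the same classes had -0.29 (12 genes), -0.39 (30), -0.44 (11), -0.09 (21) and -0.05 (6). In stimulated against resting cells the order was turned round, with all-gene medians of 0.20, 0.23, 0.23, 0.04, -0.08 and -0.07, and subunit medians of 0.24, 0.24, 0.003, 0.06 and -0.03. The nuclear subunit genes have a median length of 737 bases and the mitochondrial genes one of 784 bases, so most members fall in the classes that differ. After the length trend was removed from each library, the medians in difamilast against stimulated cells were -0.13 for mitochondrial and -0.17 for nuclear subunit genes, and in stimulated against resting cells -0.02 and -0.04. Without the trend 0 members of either class were called in the first comparison (2.67% of all genes higher and 1.98% lower), and in the second 1 nuclear subunit gene was higher and 9 were lower (16.0% and 17.7%). How far length and depth each enter these values was not tested.

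**Figure D4:**
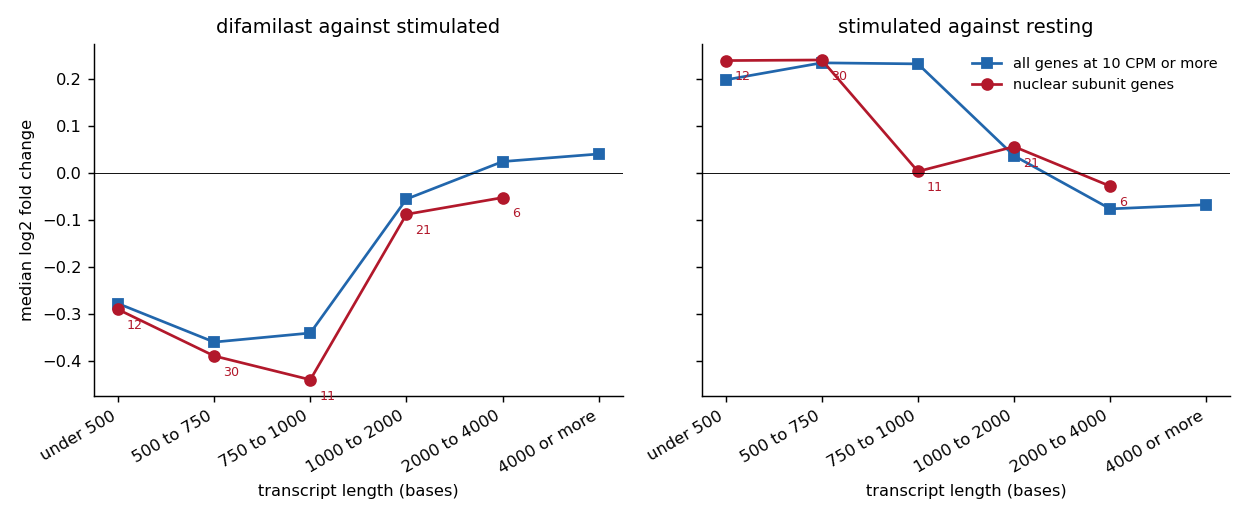
Median log2 fold change (vertical axis) by class of transcript length in bases (horizontal axis), for all genes at 10 CPM or more (blue squares) and for nuclear subunit genes (red circles, number of genes beside each point), in difamilast against stimulated and in stimulated against resting cells. The difamilast values are lowest under 1000 bases, where 53 of the 80 subunit genes lie, and in the second panel the subunit genes of 750 to 1000 bases lie at 0.003, below the 0.23 of all genes.

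Difamilast against resting cells compares the cytokines and the compound together with neither, and shares its libraries with both comparisons above. No mitochondrial gene was called (median -0.05). None had an unadjusted p under 0.05 with edgeR, DESeq2 or limma-voom, where 42.2%, 41.7% and 41.9% of all tested genes did. Of 80 nuclear subunit genes 1 was called higher and 8 were called lower by edgeR, where 32.8% of all tested genes were called (16.4% in each direction). The higher gene was Cox6c, with 74.7, 63.7 and 102 CPM in difamilast libraries and 55.7, 60.4 and 41.7 CPM in resting libraries (log2 fold change 0.60 ± 0.17, edgeR adjusted p = 0.0148). That call was lost without resting replicates 1 or 3 or difamilast replicate 3 (adjusted p 0.0779 to 0.0891). Of the 8 lower genes 5 belong to complex I. Ndufa6, an accessory subunit of the matrix arm, had 33.6, 34.0 and 52.6 CPM in difamilast libraries and 63.3, 68.8 and 54.0 CPM in resting libraries (-0.64 ± 0.16, edgeR adjusted p = 0.00770), and kept its call without each library. The accessory subunits Ndufc2 (-0.81 ± 0.22) and Ndufv3 (-0.50 ± 0.15) lost theirs without difamilast replicates 1 or 2. Ndufb11 (-0.62 ± 0.21) lost its call without any one of resting replicates 2 and 3 and difamilast replicates 1 and 2, and so did Ndufs7 (-0.59 ± 0.20), an iron-sulphur subunit named after its values were seen, which also lost it without stimulated replicates 2 or 3.

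The other 3 lower genes came from complexes II, IV and V. Sdha had 85.7, 85.2 and 76.7 CPM in difamilast libraries and 137, 89.6 and 105 CPM in resting libraries (log2 fold change -0.42 ± 0.13, edgeR adjusted p = 0.0251). The gene lost its call without any one of the difamilast libraries (0.0545 to 0.0851). Cox7a2l had 99.0, 104 and 100.2 CPM in difamilast libraries and 100.3, 152 and 145 CPM in resting libraries (-0.39 ± 0.13, edgeR adjusted p = 0.0354), with the groups meeting at resting replicate 1. Its call was lost without any one of resting replicates 2 and 3, stimulated replicates 2 and 3 and the 3 difamilast libraries (0.0540 to 0.106). Atp5c1, the gamma subunit of the ATP synthase stalk, had 87.1, 93.3 and 88.0 CPM in difamilast libraries and 89.4, 132 and 137 CPM in resting libraries (-0.41 ± 0.14, edgeR adjusted p = 0.0293), and the call was lost without resting replicates 2 or 3 or any difamilast library (0.0599 to 0.0893). With the length trend removed, 17 nuclear subunit genes were lower and 1 higher, 11 of the lower ones in complex I, beside 2 mitochondrial genes, which were mt-Atp8 (-0.48, edgeR adjusted p = 0.0238) and mt-Nd1 (-0.32, 0.0445), where 17.0% of all genes with a length were higher and 19.0% lower. The groups of difamilast and resting libraries were separate for 1 nuclear subunit gene that was higher and 5 that were lower, where the background was 23.0% and 19.8%. Without resting replicate 1, 6 mitochondrial and 18 nuclear subunit genes were lower, where 17.2% of all genes tested in that fit were lower and 15.3% higher.

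Genes of the pathway outside these symbols included larger changes. Cycs, the mobile electron carrier cytochrome c, had 35.7, 38.1 and 51.7 CPM in difamilast libraries, 54.7, 58.3 and 49.5 CPM in stimulated libraries and 18.5, 31.3 and 27.2 CPM in resting libraries. In stimulated against resting cells it was higher by a log2 fold change of 1.08 ± 0.18 (edgeR adjusted p = 0.000338), and all stimulated values lay above all resting ones. In difamilast against stimulated cells it had -0.37 ± 0.18 and was not called. The second was AA467197, the mouse gene of NMES1, a relative of the complex IV subunit Ndufa4 that can take its place. AA467197 had 48.9, 50.6 and 91.1 CPM in difamilast libraries, 126, 168 and 113 CPM in stimulated libraries and 22.7, 43.0 and 33.1 CPM in resting libraries, so the 3 groups were separate.

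For AA467197 the log2 fold change was 2.04 ± 0.26 in stimulated against resting cells (edgeR adjusted p = 1.81e-05) and -1.10 ± 0.24 in difamilast against stimulated cells (edgeR adjusted p = 0.0182). The second call was lost without any one of resting replicate 1, stimulated replicates 1 and 2 and difamilast replicates 1 and 2 (adjusted p 0.0629 to 0.129), and in a fit of those 2 groups alone (0.0514). Ndufa4 itself had 30.6, 32.1 and 53.9 CPM in difamilast libraries, 47.8, 57.9 and 48.7 CPM in stimulated libraries and 40.8, 54.4 and 31.0 CPM in resting libraries, and was called in neither comparison (0.28 ± 0.21 with stimulation, -0.41 ± 0.21 with difamilast).

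**Figure D5:**
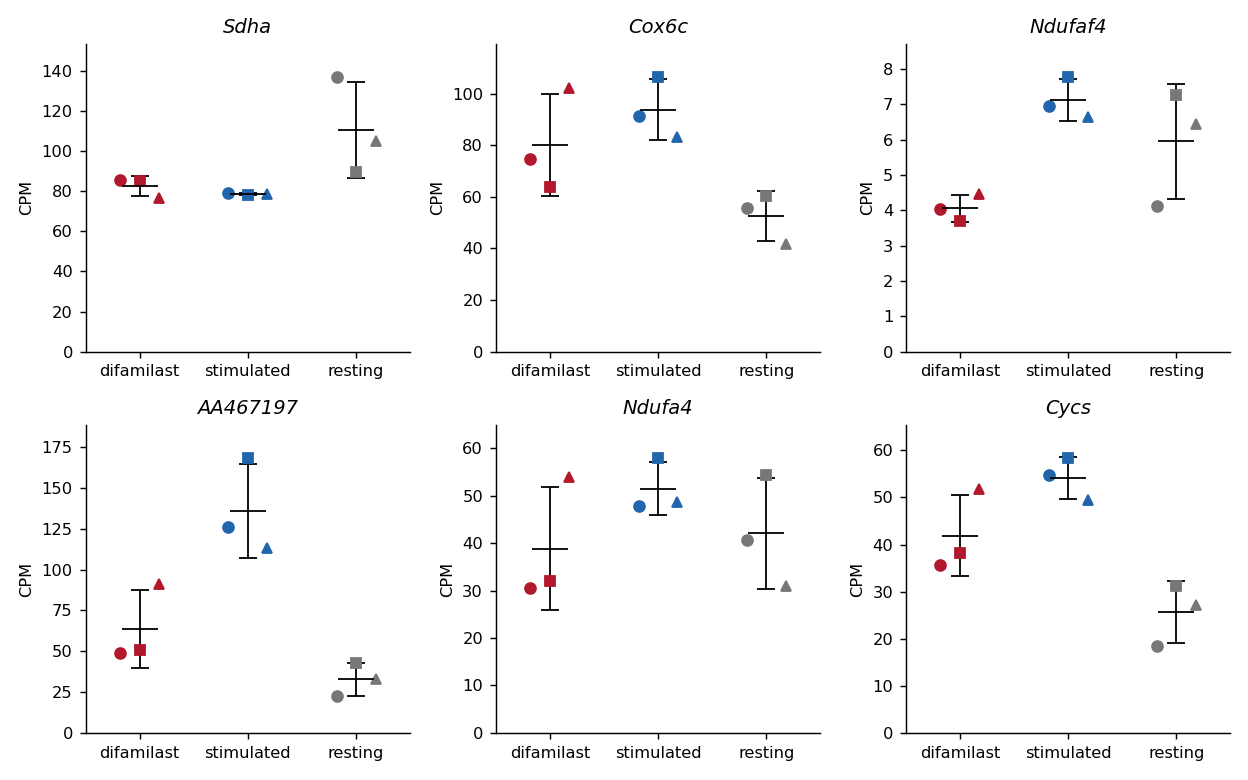
Level (CPM) of Sdha, Cox6c, Ndufaf4, AA467197, Ndufa4 and Cycs in the 9 libraries. Points are libraries (replicates 1, 2 and 3 as circle, square and triangle), horizontal lines are means and bars are 1 SD; stimulated AA467197 values (113 to 168 CPM) lie above all others of that gene, while the groups of Ndufa4 overlap.

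The counts for lists of other genes are read against the shares of all tested genes, 15.3% higher and 16.4% lower in stimulated against resting cells and 2.21% and 1.24% in difamilast against stimulated cells. The list for cytochrome c, coenzyme Q and complex IV parts held 24 tested genes, besides 2 that are already members. Of the 24, 4 (16.7%) were higher and 5 (20.8%) lower with stimulation, and 0 and 1 (4.17%) with difamilast. Gpd2, the mitochondrial glycerol-3-phosphate dehydrogenase that feeds electrons to coenzyme Q, was higher with stimulation (57.3, 54.7 and 56.8 CPM in difamilast libraries, 65.3, 62.1 and 64.3 CPM in stimulated libraries and 40.1, 32.9 and 37.1 CPM in resting libraries; log2 fold change 0.80 ± 0.11, edgeR adjusted p = 4.25e-05). The Gpd2 call was lost with library totals alone (edgeR adjusted p = 0.0952). Coq8b, a kinase-like protein of coenzyme Q synthesis, was lower with stimulation (-0.90 ± 0.13, edgeR adjusted p = 8.53e-05). Ucp2, an inner membrane carrier of the uncoupling protein family, had 0.20 ± 0.10 with stimulation and -0.15 ± 0.10 with difamilast and was not called. Of 33 assembly factors of complexes II to V, 2 (6.06%) were higher and 3 (9.09%) lower with stimulation and 0 were called with difamilast by edgeR. Ttc19, which serves complex III, had 50.5, 54.9 and 53.8 CPM in difamilast libraries, 65.1, 62.4 and 62.8 CPM in stimulated libraries and 15, 20.3 and 19.6 CPM in resting libraries (log2 fold change 1.79 ± 0.13, edgeR adjusted p = 4.18e-08, with stimulation). Of 10 further complex I assembly factors, 0 were higher and 2 lower with stimulation: Dmac2 (-0.96 ± 0.15) and Tmem186 (-0.77 ± 0.18).

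Of 36 genes for mitochondrial transcription and RNA handling, 0 were higher and 7 (19.4%) lower in stimulated against resting cells, near the 16.4% of all genes that were lower, and 1 higher and 0 lower in difamilast against stimulated cells. Those that drive transcription of the mitochondrial genome were not called by edgeR in either comparison with all libraries: Polrmt, the mitochondrial RNA polymerase, had 0.20 ± 0.25 with stimulation and -0.11 ± 0.24 with difamilast (called with stimulation without resting replicate 1, 0.58, adjusted p = 0.0407), and Tfam, its activator, had -0.20 ± 0.16 in both. Lrpprc, which stabilises mitochondrial messages, was lower with stimulation (-0.59 ± 0.18, edgeR adjusted p = 0.0218), a call lost without resting replicate 1 or stimulated replicates 1 or 2 (0.0696 to 0.0726), while its partner Slirp had -0.09 ± 0.26. Grsf1, an RNA granule protein, and Oxa1l, which inserts mitochondrially made subunits into the inner membrane, were lower (-0.77 ± 0.13 and -0.60 ± 0.13). Fastkd3 had 19.3, 22 and 18.4 CPM in difamilast libraries, 9.13, 9.59 and 11.3 CPM in stimulated libraries and 23.8, 21.8 and 17.9 CPM in resting libraries. It belongs to a family of mitochondrial RNA-binding proteins, was lower with stimulation (-1.08 ± 0.16, edgeR adjusted p = 8.20e-05) and higher with difamilast (0.98 ± 0.15, edgeR adjusted p = 0.00132), and both calls held without each library.

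Among 19 tested regulators of nuclear respiratory genes, 6 (31.6%) were higher and 1 (5.26%) lower with stimulation, against 15.3% and 16.4% of all genes. With difamilast, 2 were higher (Hif1a and Ppard, a nuclear receptor) and 1 was lower (Esrra, another). The Ppard call (0.50, edgeR adjusted p = 0.0395) was lost without any one of the stimulated or difamilast libraries (0.0507 to 0.215). Nrf1, an activator of many subunit genes, was higher with stimulation (0.46 ± 0.11, edgeR adjusted p = 0.00372; -0.07 with library totals alone, where the median gene had -0.47). Gabpb1 (0.66 ± 0.14), the partner of Gabpa (-0.04 ± 0.11, not called), and Myc (1.73 ± 0.26) were also higher. With library totals alone the stimulation calls of Gabpb1 and Hif1a were lost (edgeR adjusted p = 0.541 and 0.267), and that of Myc held. The coactivator gene Ppargc1b was the lower one, at 1.34, 0.731 and 0.901 CPM in difamilast libraries, 1.14, 0.772 and 0.746 CPM in stimulated libraries and 2.94, 2.59 and 2.03 CPM in resting libraries (-1.59 ± 0.34, edgeR adjusted p = 0.00201). Hif1a, the hypoxia-inducible factor, had 383, 372 and 338 CPM in difamilast libraries, 228, 226 and 231 CPM in stimulated libraries and 157, 127 and 134 CPM in resting libraries, and was higher in both steps (0.71 ± 0.10 with stimulation, 0.67 ± 0.10 with difamilast, edgeR adjusted p = 8.89e-05 and 0.00112). Esrra was higher with stimulation (0.39 ± 0.11; -0.13 with library totals alone, and not called without stimulated replicate 2) and lower with difamilast (-0.42 ± 0.11, edgeR adjusted p = 0.0402), the second call being lost without any one of the stimulated or difamilast libraries (0.0591 to 0.280), with RLE scaling (0.0586), with no filter on low counts (0.101) and with the replicate block (0.0669).

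Of 21 TCA cycle enzymes, 1 (4.76%) was higher and 5 (23.8%) lower with stimulation, against 15.3% and 16.4% of all genes. None was called with difamilast by edgeR, against 3.44%. The malic enzyme gene Me2 had 14.0, 13.9 and 9.06 CPM in difamilast libraries, 11.9, 10.7 and 9.70 CPM in stimulated libraries and 37.3, 33.6 and 37.5 CPM in resting libraries (log2 fold change -1.76 ± 0.17, edgeR adjusted p = 1.48e-06), and Idh2, an isocitrate dehydrogenase, had -1.03 ± 0.16. The higher one was Me3 (1.15 ± 0.19). Of 78 mitochondrial ribosomal protein genes, 7 (8.97%) were higher and 1 (1.28%) lower with stimulation, below the 15.3% and 16.4% of all genes. Of the same genes 0 were higher and 3 (3.85%) lower with difamilast (median -0.36), against 2.21% and 1.24%. Mrpl47 passed the test in both comparisons, with 6.28, 6.83 and 8.82 CPM in difamilast libraries, 13, 15.3 and 13.2 CPM in stimulated libraries and 4.13, 6.5 and 3.8 CPM in resting libraries (1.49 ± 0.22 with stimulation, edgeR adjusted p = 7.84e-05, and -0.93 ± 0.20 with difamilast, edgeR adjusted p = 0.0153). It shares 616 exonic bases on the opposite strand with the member Ndufb5, and the use of strand in counting is not given in the sources used here. The 3 calls with difamilast, Mrpl47, Mrpl17 (-0.69 ± 0.17) and Mrpl55 (-0.90 ± 0.23), were each lost without 5 of the 9 libraries: difamilast replicates 1 and 2 and stimulated replicates 2 and 3 for all of them, stimulated replicate 1 for Mrpl47 and Mrpl17, and resting replicate 3 for Mrpl55 (adjusted p 0.0537 to 0.289).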

How the data were processed

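Poly(A) RNA of basophils was captured on oligo-dT beads, amplified as whole-transcriptome cDNA and sequenced, per the labels' protocols. The authors deposited a table of raw counts per gene symbol for 9 libraries, 3 in each of 3 groups. Cutadapt 4.1, Bowtie2 2.4.5 and GRCm38 appear among the tools and builds of the submitters' processing notes, without roles. How reads were assigned to genes, including strand and multiply mapped reads, is not stated in the labels. Counts were fitted with edgeR 4.0.16 (R 4.3.3, statmod 1.5.0): genes kept by filterByExpr (minimum count 10, minimum total 15), TMM scaling, and a robust quasi-likelihood test over all 9 libraries with 6 residual degrees of freedom. Calls are Benjamini-Hochberg adjusted p under 0.05 over 21341 genes, and intervals are 95% intervals. CPM were computed from TMM-scaled totals. DESeq2 1.42.0 and limma-voom 3.58.1 were alternatives, and the scripts were tested on simulated data.

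Transcript lengths came from GENCODE vM21: the shortest APPRIS principal transcript also in RefSeq, else the shortest principal one, else the longest basic one. For mitochondrial genes these are the lengths of the annotated genes, also in the length trend. The length trend was removed per library with a lowess curve (span 0.3) over 20875 genes with a length. Near-identical copies were found by BLAST at 95% identity or more, over at least 100 aligned bases for nuclear copies. Sequences came from GENCODE vM21 transcripts. The members, the gene lists and the tests were chosen with earlier results of these data known. Named by rule were every mitochondrial and Sdh member, isoform genes of complex IV with Ndufa4 and Cox7a2l, up to 4 called members per nuclear class and direction (or, with none called, the 2 most abundant), the genes nearest the count minimum, a fixed set of 12 pathway genes and up to 3 called genes of each list; not all of them are described, and some results are not reported here. Ndufs7, Ndufb1-ps, Atp5g3, Atp5pb, Vps13b and Cpsf2 were named after their values were seen. Replicate numbers were not taken to pair the samples, and no block entered the main test.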

Additional observations from a re-analysis of the deposited data

How the results depend on the processing

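The alternatives with nuclear copies added and with library totals in place of scaling factors were chosen after seeing the data. In stimulated against resting cells, mitochondrial genes called lower numbered 0, and 5 with library totals. Nuclear subunits called higher (2) numbered 8 with no filter on low counts, 5 with the 2 groups alone, 1 with the length trend removed, 0 with library totals and 1 to 7 without each library. Those called lower (1) numbered 4 with DESeq2, 3 with RLE scaling, 2 with no filter, with the 2 groups alone and with limma-voom, 9 with the length trend removed, 33 with library totals and 1 to 6 without each library. In difamilast against stimulated cells, mitochondrial genes called lower (0) numbered 3 with no filter, 1 with the 2 groups alone, 1 with the replicate block and 0 to 1 without each library, and nuclear subunits called lower (0) numbered 10, 4 and, without each library, 0 to 17. In difamilast against resting cells, mitochondrial genes called lower (0) numbered 2 with the length trend removed, 13 with library totals and 0 to 6 without each library. Nuclear subunits called higher (1) numbered 0 with library totals and 0 to 1 without each library, and those called lower (8) numbered 16 with no filter, 3 with the 2 groups alone, 17 with the length trend removed, 64 with library totals, 10 with the replicate block and 1 to 18 without each library. With library totals the median log2 fold change of all tested genes was itself -0.47 in stimulated and -0.50 in difamilast against resting cells. For library totals, no filter, RLE scaling, the 2 groups alone, the replicate block and most fits without a library, shares of all genes called are not given here. Counts from those fits cannot be read as a result about the members. The cause was not tested.

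The mitochondrial to nuclear ratio in difamilast, stimulated and resting cells was 1.36, 1.49 and 1.41 without mt-Co1, 2.53, 2.53 and 2.52 without Atp5b, and 3.13, 3.27 and 3.21 with copies added; without each library it was 2.22 to 2.24, 2.26 to 2.30 and 2.14 to 2.47. Sign changes of values called under at least 1 of the settings compared were these. The sign turned for mt-Cytb in difamilast against resting cells without resting replicate 1 (-0.20; -0.20 to 0.091 without each library) and with library totals (-0.49). With library totals it also turned in stimulated against resting cells for mt-Nd1 (-0.49), mt-Nd4 (-0.38), mt-Nd5 (-0.49), mt-Nd6 (-0.52), Sdhd (-0.49), Uqcrc1 (-0.34), Atp5b (-0.43), Ucp2 (-0.33), Nrf1 (-0.066), Coq10b (-0.12) and Esrra (-0.13), and in difamilast against resting cells for mt-Nd3 (-0.50), Uqcrc1 (-0.36), Ucp2 (-0.46), Nrf1 (-0.086) and Acad9 (-0.13), where the median of all genes lay at -0.47 and -0.50.

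Over the named genes, comparisons and alternatives, 4381 of 4843 values kept their direction and side of the threshold, 134 lost a call, 139 gained one and 189 changed sign: the 18 above and 171 that were called under neither setting. Library totals gave 49 of the sign changes, among them 12 of the 13 mitochondrial genes in stimulated against resting cells. Correlations of the deviations of libraries with the same replicate number ran from -0.40 to 0.42. With 3 libraries per group these cannot decide whether the numbers pair the samples. With the number as a replicate block, in difamilast against stimulated cells Ndufaf4 and Esrra lost their calls (edgeR adjusted p = 0.0623 and 0.0669) and mt-Atp8 gained one (0.0465), and in difamilast against resting cells Mrpl55 gained one (0.0383). Depth is lowest in resting replicate 3 (6261446 counts), and changes of low-count members are limited by counting error there.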
